A study of Mus musculus with 3 samples.

Results

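Keratins are the intermediate filament proteins of epithelial cells. Each filament is built from obligate pairs of an acidic type I and a basic type II keratin, so a cell needs members of both types. Simple keratins (Krt7, Krt8, Krt18, Krt19 and Krt20) are made in single-layered and glandular epithelia such as the luminal cells of the mammary gland, stratified keratins in layered epithelia and in basal cells, and hair keratins in the hair follicle. The keratin family was taken as all gene symbols made of Krt and a number, which gave 46 of the 34591 genes counted. Of these, 26 were type I and 20 type II. By textbook class, 5 were simple, 16 stratified and 20 hair keratins (12 of the hair shaft and 8 of the root sheath), and 5 had no settled class. Krt6a, Krt6b, Krt33a, Krt33b and Krt72-ps carry letters in their symbols and fell outside this definition. All of them had 0 counts.

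The levels come from messenger RNA sequencing of 4T1, an established mouse mammary carcinoma line, in which WISP2, a secreted protein of the CCN family, was over-expressed. All 3 libraries (C1, C2 and C3, names without order) belong to this WISP2 OE group, made by vector transduction and puromycin selection; the treatment text describes this for Wisp1 constructs. The labels give no time point, name no promoter for the transgene and do not say whether the cells were 1 clone or a pool. The empty-vector controls that the design text mentions were not analysed here, so no effect of WISP2 on a keratin was estimated. Wisp2 itself was counted at 429 (C1), 384 (C2) and 454 (C3) CPM, where CPM is counts per 1000000 counts assigned to genes. The libraries held 17630755, 67028365 and 47577315 counts, and nothing says that they came from separate cultures, so spread between them may be technical.

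The listed epithelial markers were all counted, and those listed for other cell types were low. All 7 epithelial markers (Cdh1, Cldn4, Epcam, Grhl2, Cldn3, Esrp1 and Cldn7) reached 1 CPM in every library, and their summed level ranged from 723 to 781 CPM. None of 6 fibroblast, 4 endothelial or 4 myoepithelial markers did so, with summed levels of 0.510 to 0.967, 0.0746 to 0.284 and 0.273 to 0.567 CPM. Of 5 leukocyte markers only Lyz2 passed, Cd3e was at 0, and their sum was 12.6 (C1), 4.22 (C2) and 5.30 (C3) CPM. The part of these few other-cell counts in the keratin levels was not tested. The marker lists left out Vim, the filament of mesenchymal cells (mean 2493 CPM), and Krt14, a keratin of basal and myoepithelial cells (mean 64.5 CPM). In bulk RNA, fewer cells that express a keratin and less RNA per cell cannot be told apart.

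Few keratins were expressed, and simple keratins carried nearly all keratin reads. In every library 8 of 46 keratins reached 1 CPM, where 33.8% of all genes did. These were Krt8, Krt7 and Krt80 of type II and Krt18, Krt19, Krt14, Krt16 and Krt10 of type I. A further 11 members had counts but did not reach 1 CPM in every library, and 27 had 0 counts in all libraries, where 45.7% of all genes were at 0. The median mean level was 0 CPM for keratins and 0.00995 CPM over all genes. The family took 0.316% of counts in C1 (95% exact Clopper-Pearson interval 0.313 to 0.318), 0.316% in C2 (0.314 to 0.317) and 0.346% in C3 (0.345 to 0.348), a mean of 0.326% ± 0.018 (SD, n = 3). Intervals here cover counting error only, since PCR copies of 1 molecule were not told apart. C3 lay above C1 and C2, which had overlapping intervals. Simple keratins held 94.6% ± 0.32 of the keratin counts, Krt80 alone 3.24% ± 0.31, stratified keratins 2.19% ± 0.05 and hair keratins 0.00271% ± 0.00081.

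**Figure D1:**
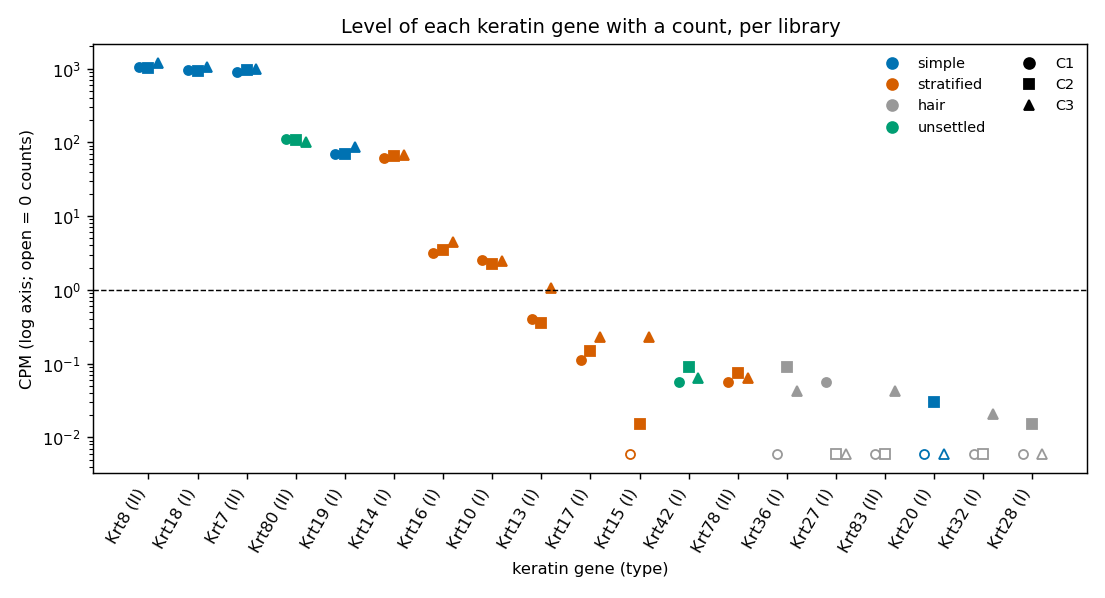
CPM (log axis) of the 19 keratin genes with a count, 1 point per library, with colour for the class and open symbols for 0 counts. The dashed line marks 1 CPM. Krt8, Krt18 and Krt7 stand between 908 and 1170 CPM, Krt80, Krt19 and Krt14 between 61.6 and 109 CPM, and Krt16 and Krt10 between 2.24 and 4.48 CPM.

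Krt8 and Krt18 form the first keratin pair made in the embryo and the core pair of simple epithelia. Krt8, the type II partner, was counted at 1038 (C1), 1023 (C2) and 1170 (C3) CPM. Krt18, the type I partner, was counted at 965 (C1), 934 (C2) and 1059 (C3) CPM. Both were highest in C3 and lowest in C2, and the counting intervals of C3 did not overlap those of the other libraries for either gene. Krt7, a type II keratin of glandular and ductal epithelia, was counted at 908 (C1), 951 (C2) and 974 (C3) CPM. Its spread was narrower, at 3.56% of the mean against 7.5% for Krt8 and 6.60% for Krt18. By mean CPM, Krt8 ranked 66, Krt18 78 and Krt7 85 among all genes. Together Krt7, Krt8 and Krt18 held 92.3% ± 0.18 of keratin counts (SD, n = 3). Krt19, a small type I keratin without a tail domain, was far lower, at 69.1 (C1), 70.2 (C2) and 85.2 (C3) CPM, again with C3 above the other libraries. Krt20, the type I keratin of intestinal and urothelial cells, had 2 counts in all, both in C2.

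Krt80, a type II keratin found in many epithelia, was the only other type II member above 1 CPM. It was counted at 109 (C1), 106 (C2) and 99.8 (C3) CPM, and unlike Krt8 it was lowest in C3. Its mean of 105 CPM ± 4.85 (SD, n = 3) exceeded that of 80.1% of the 11700 genes at 1 CPM or more.

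Stratified keratins were counted almost only among type I genes. Krt14, the type I keratin of basal and myoepithelial cells, was counted at 61.6 (C1), 64.9 (C2) and 66.8 (C3) CPM. Krt5, the type II keratin with which Krt14 pairs in basal cells, had 0 counts, a limit (3 counts) of 0.170 CPM for C1, 0.0448 for C2 and 0.0631 for C3. By the reads as counted, and with Krt5 set to 3 counts over the group, Krt14 was therefore 3442-fold higher per kilobase of coding sequence (3590-fold per kilobase of exon and 2873-fold by counts alone). Krt16, a type I keratin of stressed and wounded epidermis, was counted at 3.18 (C1), 3.43 (C2) and 4.48 (C3) CPM, with overlapping counting intervals. Krt6a and Krt6b, its usual type II partners, were both at 0. With each set to 3 counts, Krt16 as counted was 196-fold higher per kilobase of coding sequence (257-fold and 238-fold per kilobase of exon, and 166-fold for both by counts alone). These folds are not firm lower bounds. The sequence that Krt6a and Krt6b share with other genes was not computed, and Krt16 itself shares sequence with other genes, as given below. Krt10, the type I keratin of the suprabasal epidermis, was counted at 2.55 (C1), 2.24 (C2) and 2.44 (C3) CPM, with overlapping intervals in the 3 libraries. Its epidermal partners Krt1 and Krt2 had 0 counts. With each set to 3 counts over the group, Krt10 was 118-fold higher than Krt1 and 131-fold higher than Krt2 per kilobase of coding sequence. Per kilobase of exon it was 217-fold and 128-fold higher, and by counts alone 104-fold for both. All 3 stratified keratins at 1 CPM or more thus lacked their customary type II partner among the counted transcripts.

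The other stratified members were close to the floor. Krt13, the type I keratin of internal stratified epithelia such as the oral mucosa, had 7 (C1), 24 (C2) and 51 (C3) counts, or 0.397, 0.358 and 1.07 CPM, and its partner Krt4 had none. Only C3 crossed 1 CPM. Krt15, a type I keratin of basal cells and hair follicle stem cells, had 0 (C1), 1 (C2) and 11 (C3) counts. Krt17, a type I keratin of basal cells and skin appendages, had 2, 10 and 11 counts in the same libraries. Of the 8 stratified type II keratins, 7 had 0 counts, where 45.7% of all genes were at 0, and Krt78 had 9 counts in all. The stratified class thus had 9545 type I counts against 9 type II counts.

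Hair keratins, which form the hard fibre and the sheath of the hair, were nearly silent. Of 20 members 15 had 0 counts, where 45.7% of all genes were at 0. The other 5 summed to 13 counts over the libraries. Krt36 had 8 of them, Krt83 had 2, and Krt27, Krt28 and Krt32 had 1 each. Krt31, a major keratin of the hair cortex, was at 0. The symbol Krt83 is uncertain, because the RefSeq gene table for GRCm38.p6 lists it also as an older name of Krt87. Among members without a settled class, Krt23, Krt24 and Krt222 were at 0 and Krt42 had 10 counts.

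The counted keratins of chromosome 15 lay at the ends of their gene cluster. In RefSeq's annotation of GRCm38.p6, used here only for which genes neighbour each other, 27 keratin genes lie in a row on chromosome 15, of which 23 were analysed here under the same symbol. The row begins with Krt80 and Krt7 and ends with Krt8 and Krt18, the only type I gene of that cluster. These 4 genes at its ends held 412494 counts, whereas the 19 counted genes between them held 11 counts, 9 of Krt78, the neighbour of Krt8, and 2 of Krt83. Krt5 lies in that silent interior. On chromosome 11, which carries the remaining 27 keratin genes, all type I, the counted members did not lie at both ends. Krt19, Krt14 and Krt16 stand near one end of that row, at positions 22, 24 and 25, with Krt9 at 0 counts between Krt19 and Krt14. Krt10 stands alone at position 7, between genes with 0 or 1 count.

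**Figure D2:**
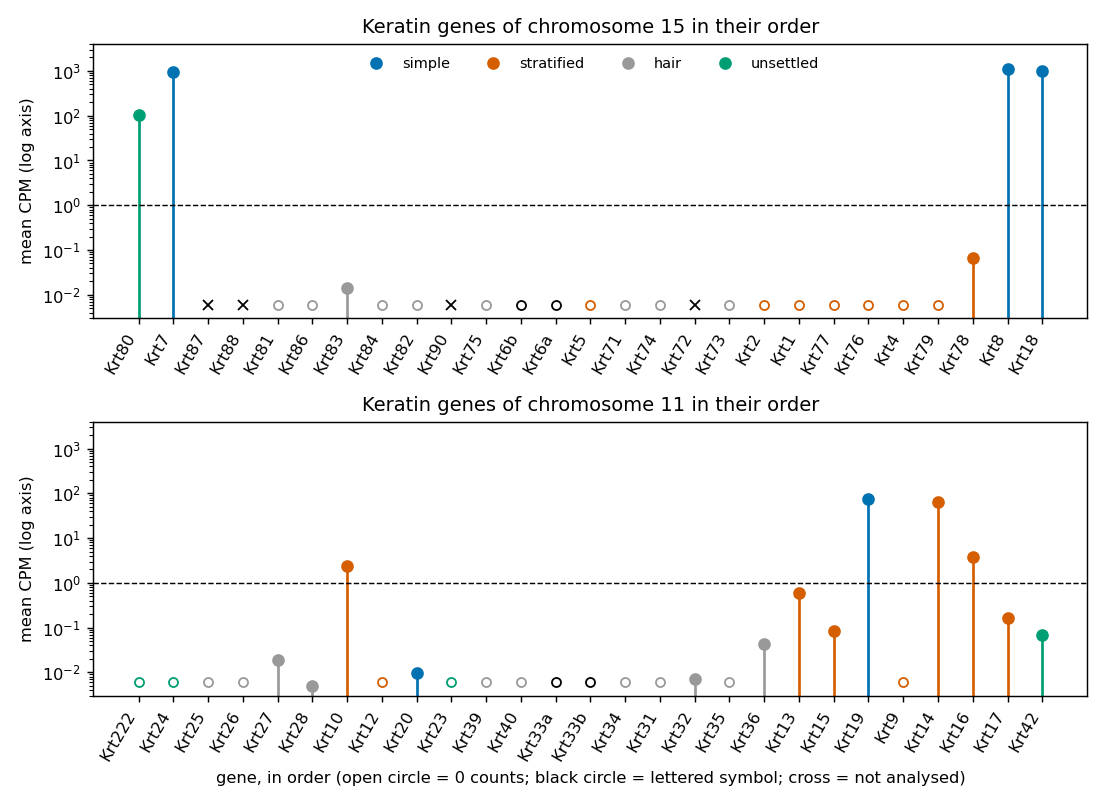
Mean CPM over 3 libraries (log axis) of keratin genes in their order along chromosomes 15 and 11, evenly spaced, with open circles for 0 counts (black for Krt6a, Krt6b, Krt33a and Krt33b) and crosses for symbols not analysed here. On chromosome 15 the tall stems are Krt80, Krt7, Krt8 and Krt18 at the ends. On chromosome 11 they are Krt19 and Krt14, with Krt16 and Krt10 lower.

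The promoters of the 3 most counted keratins are shown beside those of a low and a silent gene, because genes of both kinds share a cluster or a type. Each sequence is the 250 bases before the RefSeq start (GRCm38.p6), written 5′ to 3′ on the gene's strand, and capitals mark the TATA box (TATAAA) or the GC box (GGGCGG), searched on both strands. Krt7 (chr15:101412153-101412402, plus strand), Krt8 (chr15:102004343-102004592, minus strand) and Krt18 (chr15:102027966-102028215, plus strand) are the highly counted genes. Krt10 (chr11:99389365-99389614, minus strand) was low, and Krt5 (chr15:101712906-101713155, minus strand) had no count. The capitals that end the Krt8 sequence begin overlapping matches that run across the start.
Krt7: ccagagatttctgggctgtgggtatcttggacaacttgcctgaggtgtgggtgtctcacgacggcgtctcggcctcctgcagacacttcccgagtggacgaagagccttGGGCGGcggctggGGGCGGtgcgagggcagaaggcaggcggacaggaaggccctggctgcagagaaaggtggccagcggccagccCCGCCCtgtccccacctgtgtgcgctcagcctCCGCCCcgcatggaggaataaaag
Krt8: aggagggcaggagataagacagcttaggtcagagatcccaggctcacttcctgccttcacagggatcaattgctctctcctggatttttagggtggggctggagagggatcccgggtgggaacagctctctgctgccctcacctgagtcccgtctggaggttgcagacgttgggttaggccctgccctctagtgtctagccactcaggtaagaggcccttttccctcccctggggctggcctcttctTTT
Krt18: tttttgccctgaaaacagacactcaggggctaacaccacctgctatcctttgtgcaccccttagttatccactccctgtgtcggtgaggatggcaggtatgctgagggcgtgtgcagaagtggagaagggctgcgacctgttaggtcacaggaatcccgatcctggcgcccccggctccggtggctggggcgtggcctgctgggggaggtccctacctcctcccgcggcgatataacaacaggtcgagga
Krt10: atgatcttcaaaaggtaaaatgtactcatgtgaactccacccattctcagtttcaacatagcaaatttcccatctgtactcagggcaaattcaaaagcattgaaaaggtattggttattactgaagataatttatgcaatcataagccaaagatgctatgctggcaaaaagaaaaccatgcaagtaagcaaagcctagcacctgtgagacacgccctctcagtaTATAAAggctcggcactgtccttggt
Krt5: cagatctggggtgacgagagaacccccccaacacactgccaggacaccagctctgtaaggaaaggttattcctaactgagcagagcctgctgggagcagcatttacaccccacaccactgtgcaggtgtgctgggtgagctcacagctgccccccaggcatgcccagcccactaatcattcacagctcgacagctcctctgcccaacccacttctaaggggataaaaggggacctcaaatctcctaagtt

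The promoters of the 3 leading keratins did not look alike. In windows of 300 bases (250 before and 50 after the start), Krt7 held 4 matches to the GC box, while Krt8, Krt18, Krt10 and Krt5 held none. The TATA box was matched in Krt10 at 26 bases before the start and in Krt8 across the start, and not in Krt7, Krt18 or Krt5. Krt7 had 66.3% G and C and 21 CpG pairs and Krt18 61.3% and 17, against 58.0% and 6 in Krt8, 57.7% and 6 in Krt5 and 42.0% and 2 in Krt10. RefSeq promoter entries within 50 bases of an annotated start were used for 32 keratins. Among the 28 of these below 1 CPM, 15 held a match to the TATA box (53.6%) and 1 to the GC box (3.57%). Of the 4 at 1 CPM or more, 2 (50%) and 1 (25%) did. Of all 32851 promoters, 13.6% held a match to the TATA box and 35.7% to the GC box. Matches could lie anywhere in the window, such as 206 bases before the start in Krt84 and 19 after it in Krt42. The AP-1 motif TGANTCA was in 0 of the 4 at 1 CPM or more, in 1 of the 28 others and in 7.81% of all promoters. The AP-2 motif GCCNNNGGC, which can overlap a GC box, was in Krt7 and Krt18, in 3 of the 28 others and in 16.6% of all. A match describes these letters only.

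Levels of different keratins depend on the length by which counts are divided. Over merged exons of GENCODE M21, Krt18 stood at 686 ± 45.3 CPM per kilobase, Krt8 at 550.1 ± 41.3, Krt7 at 134 ± 4.77, Krt19 at 40.4 ± 4.83, Krt14 at 36.7 ± 1.51 and Krt80 at 16.4 ± 0.76 (SD, n = 3). The SD ranges of Krt19 and Krt14 overlapped, and the other neighbours in this order were separated. Per kilobase of coding sequence Krt18 (777 ± 51.3), Krt8 (733 ± 55) and Krt7 (689 ± 24.5) came close together, with SD ranges that overlapped between Krt18 and Krt8 and between Krt8 and Krt7 but not between Krt18 and Krt7, and Krt80 (77.5 ± 3.58) stood above Krt19 (61.9 ± 7.41). The merged exons of Krt7 span 7049 bases and its longest coding transcript 4094, against a coding length of 1371 bases. Which of its transcripts the cells made was not measured.

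**Figure D3:**
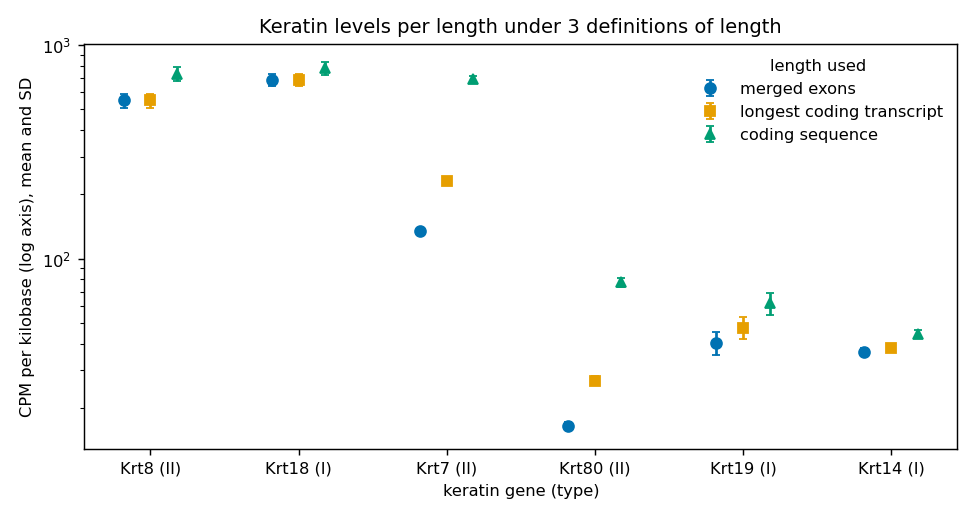
CPM per kilobase (log axis; mean and SD over 3 libraries) of the 6 most counted keratins under 3 definitions of length. Krt18, Krt14 and Krt8 move least, Krt19 moves from 40.4 to 61.9, and Krt7 moves from 134 over merged exons to 689 over coding sequence and Krt80 from 16.4 to 77.5.

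Ratios within a library compare partners without the library's scaling. The per-length level of Krt8 was lower than that of Krt18 by a log2 ratio of -0.34 in C1, -0.31 in C2 and -0.30 in C3 over merged exons (mean -0.32 ± 0.02, SD, n = 3). The mean was -0.32 with the longest coding transcript, -0.09 per coding length and 0.13 without length correction. Krt8 was below Krt18 in every library under each of these lengths, and above it in every library only without length correction. The spread of this ratio between libraries was the smallest among the 8 gene pairs compared, whose SD otherwise ran from 0.08 to 0.18. By contrast, the counts of Krt7 over those of Krt18 were 0.941 in C1 (95% interval 0.921 to 0.961), 1.02 in C2 (1.01 to 1.03) and 0.920 in C3 (0.908 to 0.931), so that only C2 had more Krt7 than Krt18 reads. The log2 ratio of Krt19 to Krt18 per merged exon length was -4.17 (C1), -4.10 (C2) and -4.00 (C3), so that Krt18 was 17.1-fold higher in the mean (12.6-fold per coding length). Krt18 exceeded Krt14 by 18.7-fold and 17.5-fold on these scales. Krt80 lay below Krt7, at 0.123 of its level over merged exons and 0.113 per coding length.

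Summed over the family, the ratio of type II to type I keratins per merged exon length was 0.904 in C1, 0.925 in C2 and 0.910 in C3, a log2 mean of -0.13 ± 0.02 (SD, n = 3). Per coding length it was 1.68, 1.74 and 1.65, a log2 mean of 0.76 ± 0.04. The direction of the imbalance therefore turned with the length used, while the libraries were close to one another on each scale. With 3 libraries the smallest p that flipping signs exactly can give (two-sided) is 0.25, and ratios were not tested.

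Keratins differed between the libraries, and none passed an adjusted test of spread beyond genes of similar level. Of the 8 keratins at 1 CPM or more, 6 were highest in C3, where 34% of such genes were, and Krt80 and Krt10 were highest in C1. Across the 9 keratins that passed the filter on low counts (these 8 and Krt13), the median difference of C3 from the gene's mean was 0.11 on the log2 scale, with -0.06 in C1 and -0.08 in C2. Over all 13026 genes tested these medians were -0.004, 0.003 and 0.001. Of the 7 epithelial markers, 6 were also highest in C3, among them Epcam (101 CPM against 82.0 in C1 and 89.3 in C2) and Esrp1 (31.4 CPM against 23.0 and 24.9). The other, Cdh1, was lowest there (431 CPM against 437 and 463). The part of library composition in the keratin differences was not tested.

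A Poisson dispersion test, which asks whether libraries differ by more than counting noise, passed 7 of the 9 keratins (adjusted p under 0.05), where 39.3% of all genes passed. Krt14 and Krt10 did not pass. Depth bears on this count, since the keratins with most reads have the smallest counting error. Without C1 it again passed 7 (36.8% of all genes), and with no filter on low counts it passed 8, Krt15 being added (26.5% of all genes). Without C3 the test passed 2 keratins, Krt7 and Krt18, where 12.9% of all genes passed. Without C2 it passed 5 (Krt7, Krt8, Krt18, Krt19 and Krt80), where 13.8% of all genes passed. In the edgeR quasi-likelihood F test against genes of similar level, 0 of 9 keratins passed with Benjamini-Hochberg adjustment, where 0.0691% of all genes did. At an unadjusted p under 0.05 it held 2 keratins, Krt13 and Krt19, where 5.15% of all genes did. Krt13 was highest in C3 by 2.99-fold over C2, the lowest library (unadjusted p = 0.00683, adjusted p = 0.559 in the edgeR test). Krt19 was highest in C3 by 1.23-fold over C1 (unadjusted p = 0.0132, adjusted p = 0.737 in the edgeR test). Neither passed after adjustment, which only 9 of the 13026 genes did. Krt8 (unadjusted p = 0.0573) and Krt18 (unadjusted p = 0.0914) came next in the edgeR test. With 3 libraries, this test cannot show that keratins vary no more than comparable genes.

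**Figure D4:**
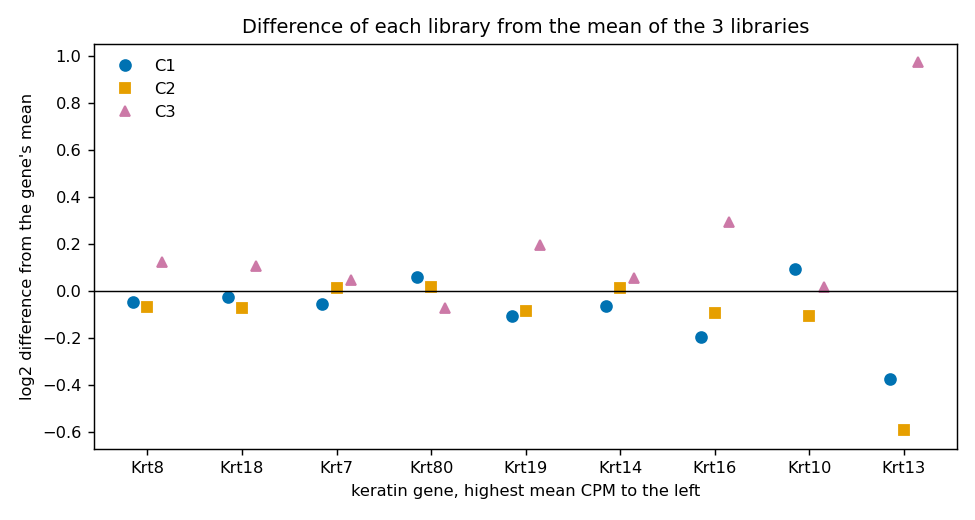
Log2 difference of each library from the mean of the 3 libraries for the 9 keratins tested, with 0.5 counts added. C3 is the highest point for 7 of 9 genes. Krt13, with 82 counts in all, has the widest range, and Krt80 is lowest in C3.

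Reads that fit several genes could shift some of these levels, and their treatment is not given in the sources used here. Of the 50-base windows of annotated coding transcripts, 29.7% for Krt8 occurred exactly in another annotated gene, mainly its pseudogene Krt8-ps. This share was 37.6% for Krt16 (mainly the annotated gene Gm11597), 14.4% for Krt14 (mainly Krt16), 4.00% for Krt17, 3.90% for Krt80 and 2.37% for Krt10, and it was at most 0.72% for Krt18, Krt7, Krt19 and Krt13. Among keratins at 1 CPM or more, Krt8, Krt16 and Krt14 therefore have the levels most uncertain by shared sequence. Members at or near 0 also shared windows, such as Krt81 (43.5%), Krt86 (43.3%), Krt12 (42.0%), Krt31 (28.1%), Krt83 (23.2%) and Krt5 (12.2%). Others, such as Krt1, Krt2 and Krt4, shared none. Counts of the sharing members could be too low if such reads were dropped, which was not tested. The share was not computed for Krt6a and Krt6b. Krt7, Krt8, Krt80 and Krt10 each overlap an annotated gene on the opposite strand. The kit keeps strand, but the strand setting of the counting is not given, so reads of such partners cannot be told apart.

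Vim and Lmna were the most counted of the other intermediate filament genes. Of 16 other intermediate filament genes 6 reached 1 CPM in every library, where 33.8% of all genes did. Among them were Vim, the filament of mesenchymal cells, at 2493 ± 150 CPM, the nuclear lamins Lmna (1021 ± 75.9), Lmnb1 (208 ± 6.47) and Lmnb2 (63.4 ± 0.54), and Nes (274 ± 5.28), a filament of progenitor cells (mean ± SD, n = 3). Nefh and Ina, of neurons, were at 0, and the median of the list was 0.146 CPM. Per merged exon length, which is 4743 bases for Vim, the log2 ratios of Vim to Krt8 were 0.07 in C1, 0.01 in C2 and -0.27 in C3. That closeness was particular to merged exons. Per coding length Vim was 2.44-fold higher than Krt8, with the longest coding transcript 2.07-fold and without length correction 2.32-fold. It was higher in 3 of 3 libraries on each of these scales.

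Most genes for proteins that anchor keratins at junctions were detected. In the list of plakin and desmosome genes, 13 of 16 reached 1 CPM in every library (median 65.5 CPM), where 33.8% of all genes did. The list was led by the cytolinkers Plec (357 ± 14.2 CPM), Dst (305 ± 33.6), Macf1 (198 ± 19.2) and Dsp (137 ± 7.22), the last of which ties keratin to desmosomes. Dsg2, the desmoglein of simple epithelia, stood at 63.2 ± 2.29 CPM, whereas Dsg3 and Dsc3 of layered epithelia had 24 counts and 1 count in all and Dsg1a had none. None of 13 cornified envelope genes, which are made in terminally differentiating epidermis, reached 1 CPM in every library (median 0 CPM), where 33.8% of all genes did. In single libraries Sbsn reached it in C1 (1.02 CPM) and Cdsn in C2 (1.15 CPM). Sbsn, Cdsn, Tgm1 and Lgals7 had the most counts (103, 96, 75 and 11). At 0 were 8 of the list, among them Ivl, Lor and Flg, where 45.7% of all genes were at 0.

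Of 19 factors that regulate keratin or epidermal and hair genes 9 reached 1 CPM in every library (median 0.976 CPM), where 33.8% of all genes did. Gata3, a luminal factor, stood at 62.4 ± 3.01 CPM, Grhl2, which maintains epithelial identity, at 44.4 ± 0.98, Klf5 at 38.9 ± 0.73 and Tfap2a, which encodes an AP-2 factor, at 36.2 ± 2.98 (SD, n = 3). Trp63, the master factor of basal cells and an activator of Krt5 and Krt14, had 2 (C1), 16 (C2) and 6 (C3) counts. Cdx2 and Hnf4a, intestinal factors, and Hoxc13, a regulator of hair keratins, were at 0. Of 10 genes whose products bind or turn over keratins 9 reached 1 CPM in every library (median 51.3 CPM), where 33.8% of all genes did. They were led by Ywhae (986 ± 38.3 CPM), Dnajb6, a chaperone of keratin (109 ± 1.90), Fbf1 (69.6 ± 2.72) and Stub1 (64.6 ± 3.23). The small heat shock protein gene Hspb1 did not reach it (0.557 ± 0.150).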

How the data were processed

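RNA of 3 libraries of WISP2-over-expressing 4T1 cells was isolated with the RNeasy Plus Mini kit and made into TruSeq stranded mRNA libraries, per the labels' protocols, which describe Wisp1 constructs. Values in the deposited table are raw whole-number counts for each gene symbol; CASAVA 1.7, BWA, STAR, HTSeq and mm9 are named in the submitters' processing notes, without roles. For annotation, strand setting and multi-mapped reads, the sources used here give nothing. Column names match no sample title, so columns were assigned to the group as a whole. All 3 columns were used.

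CPM used library totals; 1 count was worth 0.0149 to 0.0567 CPM. Lengths came from GENCODE M21 (all 46 members matched), another build than mm9. Spread was tested with edgeR 4.0.16 (R 4.3.3, TMM, filterByExpr, intercept only) on all 13026 genes passing the filter, tested on simulated data; DESeq2 1.42.0 gave alternative size factors. A gene at 0 was given the limit of 3 counts. Promoters came from RefSeq (33 of 46 members matched); motifs were chosen after some sequences had been seen, and entries over 50 bases from an annotated start were left out. Named genes are keratins at 1 CPM or more, the 3 next in each class, textbook members, and the leading and silent genes of each list; 1 gene of that rule was not analysed here. The members and lists were chosen with earlier results of these data known.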

Additional observations from a re-analysis of the deposited data

How the results depend on the processing

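No paired analysis was possible because there is 1 group only. The number of keratins at 1 CPM or more stayed at 8 under TMM or DESeq2 scaling, 0.5 CPM, the mean over libraries and without each library, and was 6 at 5 CPM. The number at 0 was 27 with all libraries and 28 or 29 with 1 library left out. At most 3 counts in sum were held by 32 keratins. The log2 ratio of type II to type I, -0.13 over merged exons, was 0.059 with the longest coding transcript, 0.76 with coding length and 0.91 uncorrected. Vim to Krt8, -0.06, became 1.05, 1.28 and 1.21 in the same order, and leaving out 1 library gave -0.13 to 0.040, the latter without C3. Krt8 to Krt18, -0.32, was -0.086 by coding length and 0.13 uncorrected. Krt7 to Krt18, -2.36, was -1.57 with the longest transcript, -0.17 by coding length and -0.061 uncorrected; Krt7 to Krt19, 1.74, was 2.29, 3.48 and 3.66; Krt8 to Krt7, 2.04, was 1.25, 0.087 and 0.19; and Krt19 to Krt18, -4.09, was -3.86, -3.65 and -3.72. Krt14 to Krt18, -4.22, was -4.13 by coding length and -3.93 uncorrected, and Krt80 to Krt7, -3.03, was -3.15 and -3.17. These shifts follow from the lengths alone, which are the same in every library. Adding 1 count in place of 0.5 moved no ratio by more than its SD. The Poisson test passed 7 keratins (39.3% of all genes), 8 without a filter (26.5%), 7 without C1 (36.8%), 5 without C2 (13.8%) and 2 without C3 (12.9%). The cause of the difference between leaving out C2 and C3 was not tested. The edgeR F test passed 0 keratins in each alternative run. Of all genes it passed 171 of 18797 without a filter, 3 of 12970 without C3 and 0 of 13026 in the robust fit. The robust fit's 0 keratins therefore says nothing about them. At an unadjusted p under 0.05, runs with all libraries held 2 or 3 of 9 keratins, and 5 of 19 without a filter (1114 of 18797 genes). With 1 library left out it held 2 without C1 (776 of 13337 genes), 3 without C2 (702 of 12774) and 0 without C3 (619 of 12970). Precision is limited by 3 libraries of 1 group, and for members near 0 by C1, the shallowest.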

Other observations

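Krt13, Krt15 and Krt19 are direct neighbours on chromosome 11 (positions 20, 21 and 22 of 27 keratin genes), and each was highest in C3. This was noticed after the values were seen. The level in C3 over the mean of C1 and C2 was 2.84 for Krt13 and 1.22 for Krt19, and of the 12 counts of Krt15, 11 were from C3, 1 from C2 and 0 from C1. On either side, Krt36 (0, 6 and 2 counts) had a ratio of 0.939, Krt9 had no count and Krt14 had a ratio of 1.06. Further on, the ratio was 1.36 for Krt16 and 1.76 for Krt17, which had 23 counts in all. Krt8 and Krt18 on chromosome 15 had ratios of 1.14 and 1.12, and Krt80 one of 0.926. No ratio was tested on its own, and in the edgeR F test neither Krt13 nor Krt19 passed with adjustment.

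Sfn, the 14-3-3 protein of epithelial cells that binds keratins, had the highest such ratio (1.42) among the genes of the fixed lists, keratins aside, that reached 1 CPM. It was counted at 36.8 (C1), 31.2 (C2) and 48.2 (C3) CPM. Esrp1, an epithelial splicing regulator, followed with 1.31 and Klf4 with 1.24, while Vim had 0.914 and Lyz2 0.604. Most other epithelial markers and keratin regulators of these lists that reached 1 CPM were also higher in C3 by this ratio. Among them were Cldn3 (1.21), Ovol1 (1.19) and Epcam (1.18). The exceptions, lower in C3, were Grhl1 (0.834), Cdh1 (0.958), Klf5 (0.971) and Grhl3. None of these ratios was tested on its own.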
